A study of Rattus norvegicus with 6 samples.

Results

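The 10 genes described here encode LIM proteins of actin stress fibers from the PDZ-LIM family (Pdlim1, Pdlim2, Pdlim3, Pdlim5 and Pdlim7), the LIM-only FHL family (Fhl1, Fhl2 and Fhl3) and the cysteine-rich protein family (Csrp1 and Csrp2). They were selected by gene symbol alone, and all 10 were found, each on 1 row, among the 14475 genes counted. RNA was measured by poly(A)-selected, stranded RNA sequencing in vascular smooth muscle (VSM) cells grown from the soleus feed artery (SFA), a resistance artery that supplies the soleus muscle of the hindlimb. The cells came from male Fischer 344 rats aged 4 months (young, n = 3) or 24 months (old, n = 3), with 1 library per culture and 1 rat per culture. All cultures were kept in medium with serum, penicillin, streptomycin and amphotericin B, without a drug under test or a genetic change. The values thus describe cultured cells and males, not the intact artery. Young was the reference level, so that a negative log2 fold change means a lower level in old VSM cells.

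A LIM domain is a zinc-binding fold that holds other proteins rather than DNA. PDZ-LIM proteins join a PDZ domain, which binds alpha-actinin on actin filaments, to LIM domains that dock kinases and other partners. FHL and cysteine-rich proteins consist almost wholly of LIM domains, sit on actin filaments and focal adhesions, and can enter the nucleus, where some act with serum response factor (SRF), the transcription factor that drives smooth muscle contractile genes through DNA elements called CArG boxes.

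Library totals ranged from 44235674 to 59700887 counts, and the 10 genes had between 218 (Pdlim3, old replicate 1) and 90085 counts (Csrp1, young replicate 2) in a library. Levels are given as CPM, the count of a gene relative to the total of its library, with totals scaled by the trimmed mean of M values (TMM), an adjustment for library composition. CPM is not divided by transcript length, so levels were compared between libraries and not between genes. In bulk RNA, fewer cells that express a gene and less RNA per cell cannot be told apart. The 12 smooth muscle markers were detected in every library and summed to 15197 to 26845 CPM in young and 5743 to 8556 CPM in old cultures, with Des, which encodes desmin, at no more than 2.99 CPM. The 10 fibroblast markers summed to 310 to 769 CPM in young and 1213 to 2201 CPM in old cultures.

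Of the 10 LIM genes, 9 had a lower estimate in old than in young VSM cells and 1 (Csrp2) a higher estimate, against 48.0% of all genes with a log2 fold change under 0. The median log2 fold change was −1.13 for the 10 genes and 0.02 for all 14475 genes. Every old library lay below every young library for 7 genes (Pdlim1, Pdlim3, Pdlim5, Pdlim7, Fhl1, Fhl2 and Csrp1), a pattern found in 14.7% of all genes. The groups overlapped for the other 3, Pdlim2, Fhl3 and Csrp2. The 7 separated genes were also the 7 with a log2 fold change of −1 or lower, a size that 6.34% of all genes reached.

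The number of LIM genes called differentially expressed turned on the test. With edgeR's quasi-likelihood test, adjusted over all genes, 0 of 10 passed both thresholds, an adjusted p under 0.05 and a change of at least 1 in either direction on the log2 scale, and 0.00691% of all genes did. At an unadjusted p under 0.05 edgeR counted 8 of 10, all lower in old, against 11.5% of all genes in that direction. With an adjusted p under 0.1 and the same fold limit edgeR counted 6 of 10, all lower in old, against 1.52% of all genes in that direction. DESeq2's Wald test, the tool of the study, called 7 of 10 at the 0.05 threshold, all lower in old, against 3.38% of the 14183 genes it adjusted in that direction and 5.68% in either direction. limma-voom called 0 of 10, and 0.0% of all genes. The 7 genes that DESeq2 called had edgeR adjusted p-values from 0.0531 to 0.136. One library bore on this count. Without old replicate 1, edgeR called the same 7 genes as DESeq2, with adjusted p-values from 0.0269 to 0.0471, and 3.47% of all genes were then called lower.

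**Figure D1:**
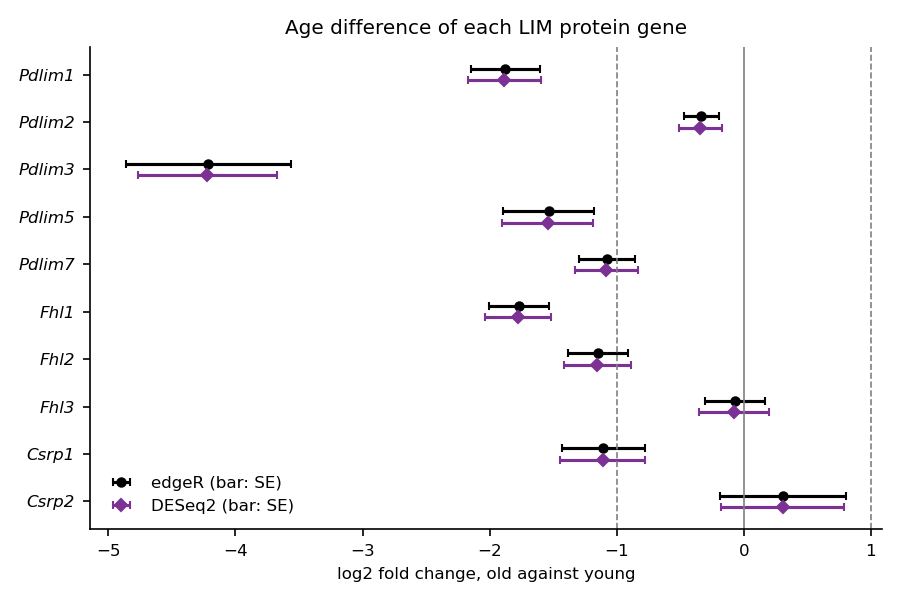
Log2 fold change (old against young, x axis) of each of the 10 LIM genes from edgeR (circles) and DESeq2 (diamonds), with bars of 1 standard error and dashed lines at −1 and 1. The edgeR estimates run from −4.22 (Pdlim3) to 0.31 (Csrp2), and 7 genes lie at −1 or below.

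Pdlim3 had the largest difference of the 10. Pdlim3 (ENSRNOG00000012658) encodes actinin-associated LIM protein, which binds alpha-actinin at the Z-discs of striated muscle and on stress fibers of smooth muscle. Its level was 78.0, 183 and 33.3 CPM in young replicates 1 to 3 and 4.38, 6.52 and 4.94 CPM in old replicates 1 to 3. The lowest young library was thus well above the highest old one, although the young cultures differed 5.5-fold among themselves. The log2 fold change was −4.22 (SE 0.65), an 18.6-fold lower level in old, with an edgeR adjusted p of 0.0557 and a DESeq2 adjusted p of 6.77e-12. Its size leaned on young replicate 2. The estimate was −3.39 without that library, and DESeq2 called Pdlim3 with any 1 of the 6 libraries left out.

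Pdlim1 (ENSRNOG00000016166), also known as CLP36 or Elfin, is a PDZ-LIM protein with a single LIM domain that links alpha-actinin to stress fibers. It stood at 265, 431 and 545 CPM in young and 120, 97.3 and 121 CPM in old cultures. The old cultures were close to each other, while the young ones spread about 2.06-fold. The log2 fold change of Pdlim1 was −1.88 (SE 0.27), 3.67-fold lower in old, with adjusted p-values of 0.0550 in edgeR and 1.39e-08 in DESeq2. The DESeq2 call of Pdlim1 held with each of the 6 libraries left out.

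Pdlim5 and Pdlim7 belong to the Enigma branch, whose members carry several LIM domains behind the PDZ domain. Pdlim5 (ENSRNOG00000016419), or Enigma homolog, is a scaffold for protein kinase C at actin filaments. Its level was 792, 1007 and 1437 CPM in young and 551, 255 and 310 CPM in old cultures. Old replicate 1 was the nearest of the old cultures to the young range. For Pdlim5 the log2 fold change was −1.54 (SE 0.36), with adjusted p-values of 0.0982 in edgeR and 0.000602 in DESeq2, which called it with each library left out. Pdlim7 (ENSRNOG00000013653), or Enigma, was first known as a partner of receptor tyrosine kinases. It stood at 164, 183 and 240 CPM in young and 118, 83.3 and 76.9 CPM in old cultures, again with old replicate 1 the highest of the old. Its log2 fold change was −1.08 (SE 0.22), a level 2.11-fold lower in old, with adjusted p-values of 0.0767 in edgeR and 0.000418 in DESeq2. The DESeq2 call of Pdlim7 held in 4 of 6 fits with 1 library left out.

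Pdlim2 was the PDZ-LIM gene with the smallest difference. Pdlim2 (ENSRNOG00000008543), or Mystique, is found at the cytoskeleton and also in the nucleus, where it promotes the ubiquitination of transcription factors of immune cells. It stood at 44.9, 48.7 and 52.7 CPM in young and 45.7, 36.4 and 34.1 CPM in old cultures. Old replicate 1 lay within the young range. The log2 fold change of Pdlim2 was −0.33 (SE 0.14), with adjusted p-values of 0.215 in edgeR and 0.179 in DESeq2. No tool called it under any setting run. DESeq2 without old replicate 1 gave it an adjusted p of 0.00177, but its log2 fold change of −0.48 was short of the fold limit. As a group the 5 PDZ-LIM genes had a median log2 difference of −1.54.

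**Figure D2:**
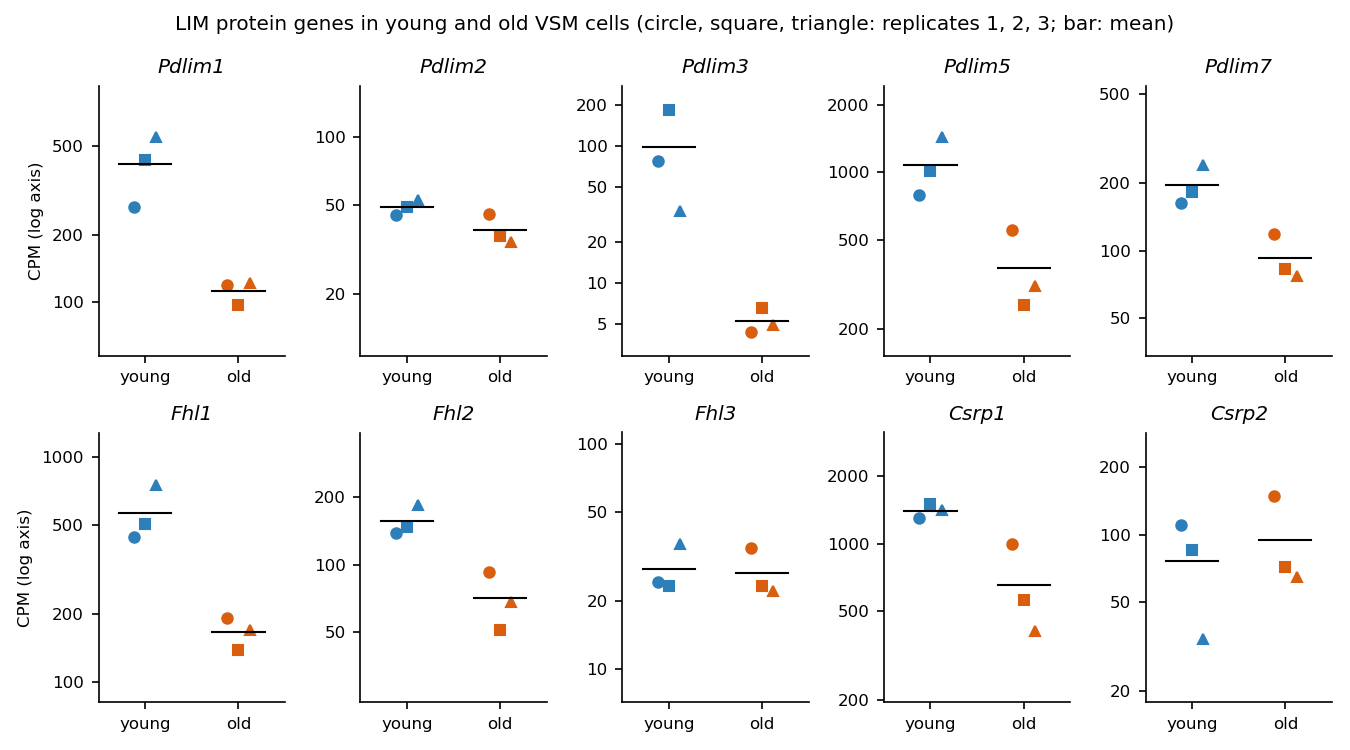
CPM of each of the 10 LIM genes in the 3 young and 3 old libraries (points, log axis), with the group means. Old points lie below all young points for 7 genes and overlap with them for Pdlim2, Fhl3 and Csrp2.

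Among the FHL genes, Fhl1 and Fhl2 were lower in old VSM cells in each library and Fhl3 was not. Fhl1 (ENSRNOG00000000875) encodes a LIM-only protein abundant in skeletal and cardiac muscle and linked to inherited myopathies. Its level was 442, 504 and 754 CPM in young and 192, 138 and 169 CPM in old cultures. The groups were far apart for Fhl1 compared with the spread inside either. The log2 fold change was −1.77 (SE 0.24), a level 3.41-fold lower in old, with adjusted p-values of 0.0531 in edgeR and 1.76e-09 in DESeq2, which called it with each library left out. When genes under 1 CPM were dropped from the test, Fhl1 became the only LIM gene of the 10 that edgeR called, at an adjusted p of 0.0494, beside 0.27% of the genes kept that were called lower.

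Fhl2 (ENSRNOG00000016866) binds integrin tails at focal adhesions and acts in the nucleus as a cofactor of beta-catenin and as a modulator of SRF. Fhl2 stood at 139, 147 and 185 CPM in young and 92.8, 51.2 and 68.5 CPM in old cultures. Its young libraries were close to each other and none reached down to the old range. The log2 fold change of Fhl2 was −1.15 (SE 0.23), with adjusted p-values of 0.0783 in edgeR and 0.000427 in DESeq2, and the DESeq2 call held in 5 of 6 fits with 1 library left out. Fhl3 (ENSRNOG00000007541) is an actin-binding relative best known from skeletal muscle. It stood at 24.4, 23.4 and 36.0 CPM in young and 34.4, 23.3 and 22.2 CPM in old cultures, so the groups interleaved. Its log2 fold change was −0.07 (SE 0.24, edgeR adjusted p = 0.880), and the estimate took either sign, from −0.30 to 0.16, when 1 library was left out.

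CArG boxes near the transcription start are the best known entry point of SRF into muscle genes, and the promoters were searched for them because several relatives of these proteins act with SRF. RefSeq promoter sequences (GRCr8 assembly, 250 bases before the start) were found for 8 of the 10 genes, in 10 windows. Pdlim2 and Pdlim3 had no entry. Both strands were searched for the CArG box by name and for the TEAD factor motif CATTCC. A CArG match lay in 3 of the 10 windows, 1 of Fhl1 and both of Fhl2, against 1.5% of 33469 promoter windows. The CATTCC motif lay in 1 of the 10 windows, from Fhl2, against 12.1% of all windows. The 3 windows with a CArG match are shown 5′ to 3′ on the strand of the gene, since they are the ones that set these FHL genes apart in the search, with the matched letters in capitals.
Fhl1, GRCr8 chrX:139638246-139638495, plus strand: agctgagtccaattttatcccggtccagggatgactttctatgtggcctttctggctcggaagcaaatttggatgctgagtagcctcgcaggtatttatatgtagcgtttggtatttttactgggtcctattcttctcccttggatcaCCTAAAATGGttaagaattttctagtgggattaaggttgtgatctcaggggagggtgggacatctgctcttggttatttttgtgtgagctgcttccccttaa
Fhl2, GRCr8 chr9:52923327-52923576, minus strand: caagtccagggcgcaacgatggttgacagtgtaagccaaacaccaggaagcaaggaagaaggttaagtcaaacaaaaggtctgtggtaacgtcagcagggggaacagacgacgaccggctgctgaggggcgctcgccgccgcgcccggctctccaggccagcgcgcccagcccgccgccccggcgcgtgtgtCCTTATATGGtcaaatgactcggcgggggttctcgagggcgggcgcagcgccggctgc
Fhl2, GRCr8 chr9:52954541-52954790, minus strand: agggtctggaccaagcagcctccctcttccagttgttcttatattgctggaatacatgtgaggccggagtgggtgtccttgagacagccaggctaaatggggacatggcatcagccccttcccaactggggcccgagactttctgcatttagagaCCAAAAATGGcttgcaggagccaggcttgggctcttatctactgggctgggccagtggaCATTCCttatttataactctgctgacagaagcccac
In the Fhl1 window CCTAAAATGG began 102 bases before the start. In the first Fhl2 window CCTTATATGG began 58 bases before the start, and in the other CCAAAAATGG began 95 bases and CATTCC 36 bases before it, so the motifs did not overlap. Fhl3 and Csrp2, whose groups overlapped, held neither motif in their windows. Neither did Pdlim1, Pdlim5, Pdlim7 and Csrp1, whose old libraries all lay below the young ones. A relation of the motifs to the age differences was not tested. A match describes letters only, and binding was not measured.

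Of the cysteine-rich protein genes, Csrp1 had no overlap between the ages and Csrp2 did. Csrp1 (ENSRNOG00000008937) encodes a protein that binds alpha-actinin and zyxin and is abundant in smooth muscle. It stood at 1297, 1497 and 1414 CPM in young and 991, 558 and 409 CPM in old cultures. The young cultures were tight, with a coefficient of variation of 7.17%, and the old ones loose, at 46.3%. For Csrp1 the log2 fold change was −1.10 (SE 0.32), with adjusted p-values of 0.136 in edgeR and 0.0122 in DESeq2. This was the least secure of the DESeq2 calls. It held in 1 of 6 fits with a library left out, the one without old replicate 1. Without old replicate 3 the adjusted p was 0.0342, but the log2 fold change of −0.86 was short of the fold limit. In the remaining fits the adjusted p ran from 0.0507 to 0.107.

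Csrp2 (ENSRNOG00000003772), or SmLIM, is enriched in vascular smooth muscle and acts with SRF and GATA factors in the nucleus. It stood at 110, 85.7 and 34.3 CPM in young and 149, 71.8 and 64.7 CPM in old cultures. Both groups were widely spread and overlapped. The log2 fold change of Csrp2 was 0.31 (SE 0.49, edgeR adjusted p = 0.726), and it ranged from −0.17 to 0.66 with 1 library left out, so no direction can be given.

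Single cultures held a similar place across many of the genes. Young replicate 3 was the highest young library for 7 genes (Pdlim1, Pdlim2, Pdlim5, Pdlim7, Fhl1, Fhl2 and Fhl3) and the lowest for Pdlim3 and Csrp2. Young replicate 1 was the lowest young library for 7 genes, all but Pdlim3, Fhl3 and Csrp2. Old replicate 1 was the highest old library for 8 genes, all but Pdlim1 and Pdlim3. The summed smooth muscle markers followed the same order, with young replicate 3 highest and young replicate 1 lowest of the young at 26845 and 15197 CPM, and old replicate 1 highest of the old at 8556 CPM. That sum consists largely of Acta2, Tagln and Cald1, and single markers did not all share the order. Myh11 stood at 77.9, 229 and 95.4 CPM in old replicates 1 to 3, lowest in replicate 1. How often each library held these places over all genes was not computed, and the part of the library order in the age differences was not tested.

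**Figure D3:**
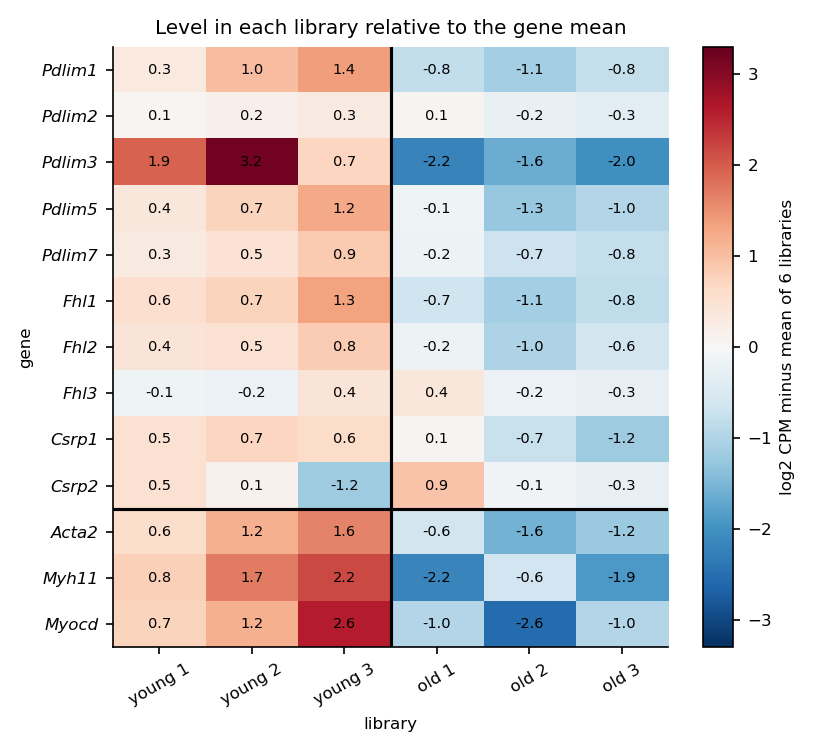
Heat map of log2 CPM in each of the 6 libraries (columns) minus the mean of the gene over them, for the 10 LIM genes and, below the line, the smooth muscle genes Acta2, Myh11 and Myocd. Of the LIM genes Pdlim3 has the widest profile, and the young and old libraries overlap for Pdlim2, Fhl3 and Csrp2.

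To compare genes of the same family inside a library, the log2 ratio of their counts was taken, which does not depend on library size. The ratio also holds the unknown ratio of transcript lengths. That part was taken to be the same in all libraries, which was not tested, so only the difference between the ages was read. Of 14 pairs, the ratios of 11 did not overlap between young and old, and an exact two-sided permutation test gave each of these a p of 0.1, the smallest that 3 against 3 libraries can give. After adjustment over the 14 pairs the smallest value was 0.127, so no pair could pass. The pairs share genes and are not independent, and the share of all gene pairs that separate was not computed. Many of the separated pairs set a gene with separated groups against Pdlim2, Fhl3 or Csrp2, so they partly restate the single-gene values. Csrp1 and Csrp2 parted in this measure. The log2 ratio of Csrp1 to Csrp2 was 3.56, 4.13 and 5.37 in young and 2.73, 2.96 and 2.66 in old VSM cells, a difference of −1.57 that stayed between −1.96 and −1.06 when a library was left out.

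The FHL ratios were tight within each age. The log2 ratio of Fhl1 to Fhl3 was 4.33 ± 0.135 (SD, n = 3) at 4 months and 2.66 ± 0.241 (SD, n = 3) at 24 months. That of Fhl2 to Fhl3 was 2.51 ± 0.147 (SD, n = 3) at 4 months and 1.40 ± 0.25 (SD, n = 3) at 24 months. The ratio of Fhl1 to Fhl2 was lower in old as well, with a difference of −0.57. Within the PDZ-LIM family 7 of 10 ratios, built from only 5 genes, were separated by age. Among them was Pdlim1 to Pdlim2 with a difference of −1.48. The ratio of Pdlim1 to Pdlim5 overlapped between the ages, with a difference of −0.25. The ratios of Pdlim3 to Pdlim1 and to Pdlim5 also overlapped between the ages.

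**Figure D4:**
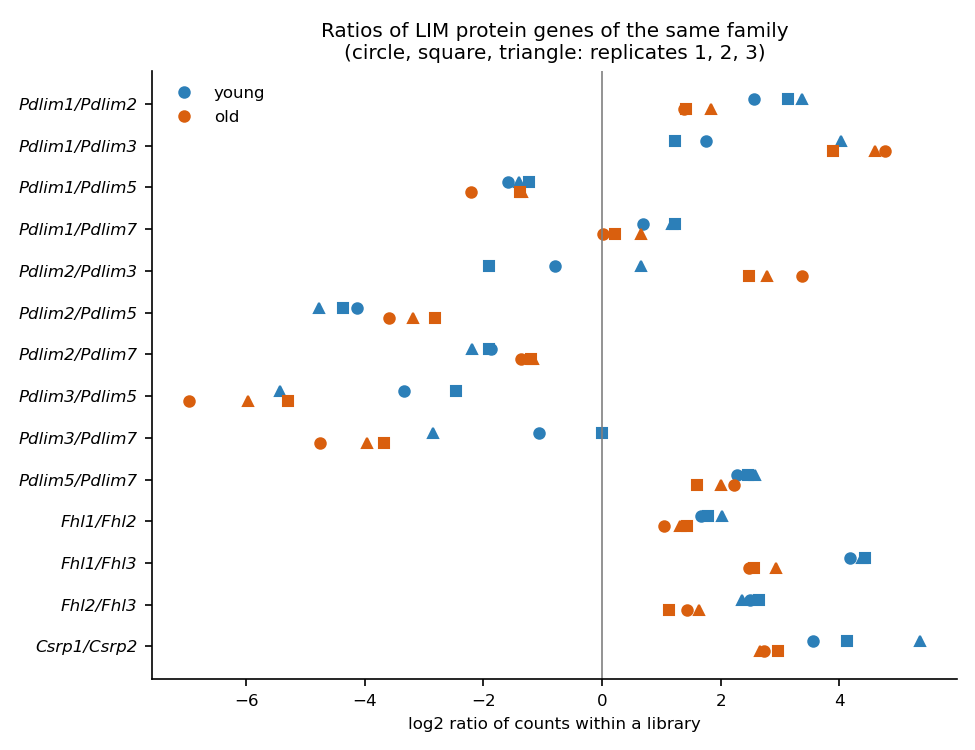
Log2 count ratio of pairs of LIM genes of the same family in each young (blue) and old (orange) library, with marker shapes for the replicates. The Csrp1 to Csrp2 ratio lies between 3.56 and 5.37 in young and between 2.66 and 2.96 in old libraries.

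For each LIM gene, the genes with the most similar profile were found by the root mean squared difference of log2 CPM, centred on the mean over the 6 libraries, among 12256 other genes with a mean of at least 1 CPM. These likenesses are descriptions over 6 libraries that share the age groups. For Pdlim1 they were Chmp4c (0.0917), Shroom4 (0.126) and Myl9 (0.147), the last a smooth muscle myosin light chain. For Pdlim5 they were Dnajb4 (0.136), Lmod1 (0.143), a leiomodin that nucleates actin in smooth muscle, and the actin-binding protein gene Tagln (0.144). Fhl1 was nearest to Nexn (0.0714), which encodes the actin-binding protein nexilin, Col15a1 (0.0765) and Ppp1r14a (0.0784), which encodes the myosin phosphatase inhibitor CPI-17. Pdlim7 was nearest to Coro1c (0.0664), Dstn (0.0751) and Igf1r (0.0863), of which Coro1c and Dstn act on actin filaments.

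The other LIM genes had mixed neighbours. Genes near Fhl2 included Slc25a13 (0.059) and Wnt11 (0.0806). Csrp1 was nearest to Ehd4 (0.128), Pter (0.143) and Dnaaf3 (0.146). For Pdlim2 the named neighbours were Cnot11 (0.034) and Mob3a (0.0361), and for Fhl3 they were Mid1ip1 (0.0682) and Serpinh1 (0.0869), each beside a gene without a symbol. Pdlim3 and Csrp2 had few close matches. The nearest to Pdlim3 were Afap1l2 (0.67), Ccn3 (0.702) and Clec2d (0.807), and the nearest to Csrp2 were Matn2 (0.231), Kit (0.287) and Tnfrsf22 (0.292). Among the 10 genes themselves, Pdlim1 and Fhl1 were closest to each other (0.166), followed by Pdlim7 and Fhl2 (0.169), whereas the nearest LIM gene to Csrp2 was Pdlim2, at 0.721.

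Close relatives in the same families were examined next. Of 8 listed relatives 5 were counted, and of these 3 had lower and 2 higher estimates in old VSM cells, and their median on the log2 scale was −0.86. DESeq2 called 2 of the 5, Pdlim4 and Crip1, both lower, and edgeR 0. Pdlim4, or RIL, the remaining PDZ-LIM relative with a single LIM domain, averaged 95.8 ± 25.6 CPM (SD, n = 3) at 4 months against 47.5 ± 6.00 CPM (SD, n = 3) at 24 months, a log2 fold change of −1.01 (SE 0.22, DESeq2 adjusted p = 0.000800). Crip1 had a log2 fold change of −1.05 (SE 0.37) and a DESeq2 adjusted p of 0.0465. Crip2 had −0.86 (SE 0.29), short of the fold limit. Fhl4 had 0.45 (SE 0.19, edgeR adjusted p = 0.225). Ldb3, the gene of the Z-disc protein ZASP, had 0.52 (SE 0.56, edgeR adjusted p = 0.595), with old replicate 3 at 9.95 CPM and the others at no more than 3.66 CPM.

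Of 31 other cytoskeletal LIM genes, 22 had lower and 9 higher estimates in old VSM cells, and the median on the log2 scale was −0.42. DESeq2 called 3 lower (Lmcd1, Lims2 and Zyx) and 1 higher (Limch1), a direction in which it called 2.3% of all genes, and edgeR called 0. Lmcd1, the gene of dyxin, a LIM protein that restrains GATA factors, stood at 41.6, 74.7 and 89.2 CPM in young and 5.79, 1.94 and 4.70 CPM in old cultures. Its log2 fold change of −4.05 (SE 0.49, DESeq2 adjusted p = 2.81e-16) was close in size to that of Pdlim3. Lims2, the gene of the integrin adaptor PINCH2, had −1.25 (SE 0.17, DESeq2 adjusted p = 1.90e-07). Limch1, whose product activates non-muscle myosin II, went the other way, from 32.4, 7.75 and 7.08 CPM in young to 110, 36.7 and 154 CPM in old cultures, a log2 fold change of 2.68 (SE 0.79, DESeq2 adjusted p = 0.00207). Of the nuclear list, 9 of 17 nuclear LIM genes and cofactors were counted, with 3 lower, 6 higher and 0 called by DESeq2 or edgeR. The largest differences among those with a mean of at least 1 CPM were Lmx1a (1.03), Ldb2 (0.58) and Ldb1 (0.41) on the log2 scale.

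Known binding partners of the LIM proteins were listed too. Of 17 partner genes counted of 22 listed, 16 had a lower estimate in old VSM cells, and the median difference was −0.85 on the log2 scale. In edgeR without old replicate 1 that median was −0.59. Of the lower genes, Actn3, Myot, Myoz2 and Ttn had few counts, at no more than 1.05 CPM in any library. The 8 whose old libraries all lay below the young, a pattern found in 14.7% of all genes, included Myot and both non-muscle alpha-actinin genes. Actn1, the main alpha-actinin of stress fibers, stood at 1266, 1440 and 1607 CPM in young and 730, 444 and 407 CPM in old cultures, a log2 fold change of −1.45 (SE 0.26). Actn4 had −1.08 (SE 0.27). Itga7, a laminin-binding integrin subunit of muscle, had the largest difference of the list at −2.38 (SE 0.23). DESeq2 called 4 of the partner genes, Actn1, Actn4, Itga7 and Itga3, at adjusted p-values of 4.40e-06, 0.00291, 7.83e-19 and 0.00283, and edgeR called 0.

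The SRF and myocardin family list held 9 symbols, of which 7 were counted. Mkl1 and Mkl2, older names of Mrtfa and Mrtfb, were not found as symbols. The 4 genes with lower estimates (Srf, Myocd, Mrtfa and Elk3) had every old library below every young one, as did 14.7% of all genes. Myocd, the gene of myocardin, the smooth muscle cofactor of SRF, stood at 30.2, 41.5 and 110 CPM in young and 9.25, 3.08 and 9.33 CPM in old cultures. Its log2 fold change was −3.07 (SE 0.65), and it was the 1 gene of this list that DESeq2 called (adjusted p = 7.18e-06). Srf had −0.98 (SE 0.25, DESeq2 adjusted p = 0.00734), just short of the fold limit, and Mrtfa −0.55 (SE 0.10). The log2 fold changes of Elk3, Elk4, Mrtfb and Elk1 were −0.24, 0.16, 0.13 and 0.18, and edgeR called 0 of the 7.

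Markers of cell types also differed between the ages. All 12 smooth muscle markers had lower estimates in old VSM cells, a median of −1.89 on the log2 scale, and DESeq2 called 8 of them. The main test, edgeR, called 0 of the smooth muscle, skeletal muscle and fibroblast markers. Among these, Actg2 had −3.95, Myh11, the smooth muscle myosin heavy chain, −3.08 and Myocd −3.07. Several of the LIM proteins are known from striated muscle, and 7 of 17 skeletal muscle markers were counted, summing to 176 to 392 CPM in young and 36.6 to 69.3 CPM in old cultures. DESeq2 called 3 of them lower, Acta1 (−3.51), Myh2 (−3.11) and Myh1 (−3.00). Tnnt3 had a higher estimate (0.92) and was not called, nor were Actn2, Actn3 and Ttn, while Myod1, Myog, Myf5, Pax7 and Ckm were not among the genes counted. All 10 fibroblast markers had higher estimates, with a median of 1.40, and DESeq2 called 3 of them. The ages overlapped for Lum, Dpt, Pi16, Cd34, Pdgfrl and Scara5. Dcn, the gene of the matrix proteoglycan decorin, was the most uneven, at 19.9, 1.16 and 2.28 CPM in young and 26.0, 411 and 119 CPM in old cultures. Its log2 fold change was 4.58 and that of Col14a1 2.43, both called by DESeq2, as was Dpp4, which stayed at or below 1.34 CPM in each library. Lum had 2.02 and was not called. The part of these marker differences in the levels of the LIM genes was not tested.

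**Figure D5:**
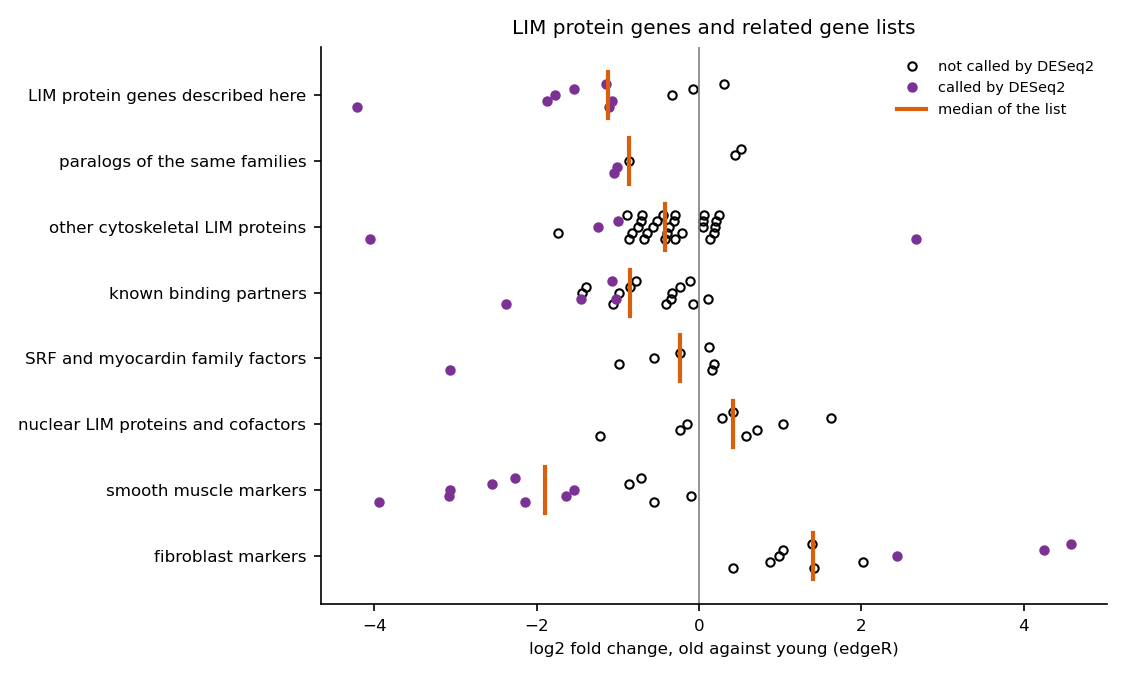
Log2 fold change (edgeR, old against young) of each of the 10 LIM genes and of the genes of 7 other lists, filled where DESeq2 called the gene, with the median of each list as a bar. Of the lists drawn, smooth muscle markers have the lowest median (−1.89) and fibroblast markers the highest (1.40), with the 10 LIM genes at −1.13.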

How the data were processed

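Cells were cultured from the SFA of 3 young and 3 old rats, and each culture gave 1 RNA library. Counts were deposited as whole numbers per gene, before any normalization by the authors. Per their methods and processing notes, reads were trimmed with cutadapt 3.5 through Trim Galore 0.6.7, aligned to Rnor 6.0 with STAR 2.7.10b and counted with featureCounts of Subread 2.0.8. The methods name a RefSeq annotation, whereas the deposited counts carry Ensembl identifiers. How strand, multi-mapping reads and mates were treated is not given in those sources. Even values made up 68.7% to 71.1% of the counts from 1 to 19, so both mates of a pair appear to have been counted and counting error is larger than a count implies. Each of the 14475 genes reached 10 counts in 3 or more libraries, and 1518 had no symbol.

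The quasi-likelihood F test of edgeR 4.0.16 (R 4.3.3) was run over all genes with TMM scaling, no covariate and Benjamini-Hochberg adjustment. A call needed an adjusted p under 0.05 and a log2 fold change of 1 or more in size. SE was the absolute log2 fold change over the square root of F. The alternatives were DESeq2 1.42.0, which left 292 genes unadjusted, voom from limma 3.58.1, other normalizations, filters and thresholds, halved counts, a replicate block and each library left out. Ratios used a prior count of 0.5. The tests were also run on simulated data, where edgeR had to return the direction and size of planted changes. That check set no limit on missed or false calls. P-values measure the spread between these cultures. Counting error is small beside that spread for the 10 LIM genes, which had at least 218 counts in each library. For listed genes with few counts it weighs more. No 2 libraries of a group agreed within sampling noise. All 10 LIM genes, all relatives and SRF factors, the 3 largest differences of each other list with a mean of at least 1 CPM and the 3 most similar genes per LIM gene were named by rule, except for some that are not reported here. Other list genes were added after their values were seen. The genes and lists were chosen with earlier results of these data known.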

Additional observations from a re-analysis of the deposited data

How the results depend on the processing

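RLE size factors, library size alone, halved counts and limma-voom left the number of LIM genes called at 0 of 10 and lower in old VSM cells at 9 of 10. edgeR called 1 of 10 after dropping genes under 1 CPM, 6 at an adjusted p under 0.1, and 0 to 7 with 1 library left out, 7 only without old replicate 1. DESeq2 called 7, and 5 to 7 with 1 library left out, a set of fits chosen after seeing the data in which it called 551 to 1377 of all genes, the most without old replicate 1. Over all genes the main test called 1, limma-voom 0, DESeq2 805, edgeR without genes under 1 CPM 65 and edgeR without old replicate 1 732. The cause of these differences was not tested. The median log2 fold change of the 10 genes, −1.13, ranged from −1.46 to −1.01 with a library left out in edgeR and from −1.47 to −1.01 in DESeq2. Between 8 and 10 of the 10 had lower estimates in these fits. The estimates that changed sign were those of Fhl3, from −0.30 to 0.16 in edgeR (0.16 without young replicate 3, 0.01 without old replicate 2 and 0.05 without old replicate 3) and 0.153, 0.0136 and 0.0390 in DESeq2, and those of Csrp2, from −0.17 to 0.66 in edgeR (−0.04 without young replicate 3 and −0.17 without old replicate 1) and −0.0456 and −0.18 in DESeq2.

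With the replicate number as a block, edgeR called 0 of 10 LIM genes and 1 of all genes, the same counts as without the block, and the median log2 fold change of the 10 was −1.19. Deviations of same-numbered cultures correlated at 0.06, 0.32 and 0.31, young replicate 1 correlated best with old replicate 2 (0.35), and nothing in the labels pairs the rats, so the numbers were not taken as pairs.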

Other observations

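Markers of other cells of the artery wall took mixed directions. Of 9 endothelial markers 5 were counted, summing to 10.9 to 17.1 CPM in young and 13.6 to 20.0 CPM in old cultures, and DESeq2 called 1, Erg, lower (log2 fold change −2.03, adjusted p = 0.0194), while Tek had 0.77. The 2 macrophage markers counted of 9 summed to no more than 2.90 CPM in a library, with Csf1r at 0.42. The 3 Schwann cell markers counted of 6 summed to 12.5 to 75.2 CPM in young and 54.3 to 85.4 CPM in old cultures, and none was called, with S100b at 0.92.

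Pericyte markers summed to 904 to 1373 CPM in young and 667 to 1520 CPM in old cultures, with 4 of 6 counted. Cspg4, the gene of the proteoglycan NG2, was called lower by DESeq2 (log2 fold change −1.40, SE 0.30, adjusted p = 0.000341). Notch3 had −2.83 with an SE of 1.39 and Pdgfrb 0.32, neither called. edgeR called 0 markers of these lists.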
